A study of Mus musculus with 13 samples.

Results

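The genes described here carry out antigen presentation: 7 of the MHC class I pathway (B2m, H2-K1, H2-D1, Tap1, Tap2, Tapbp and Nlrc5) and 3 of the MHC class II pathway (Cd74, H2-Aa and H2-Ab1). They were chosen by name, and all 10 were present in each of the 3 deposited comparison tables, which together hold 17562 genes. The tables come from sequencing cortical RNA from 13 mice, all male and 18 months old. The 4 Grn-/-;GRNtg mice are labelled as null for mouse Grn, the gene of progranulin, and as carrying a human GRN transgene; the 4 Grn+/- mice had lost 1 mouse copy; and the 5 wild-type (WT) mice were Grn+/+. The sources used here do not name the promoter or copy number of the transgene. The tissue was whole cortex, so fewer cells of a type and less RNA per cell cannot be told apart. Values per mouse were not used here: each table gives a mean normalized count over libraries, a log2 fold change, its standard error (SE) and p-values.

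MHC class I molecules sit on nearly all nucleated cells and show CD8 T cells short peptides from proteins made inside the cell. A heavy chain (H2-K1 or H2-D1 here) pairs with beta-2 microglobulin, the product of B2m. Peptides reach it through the TAP transporter, built from Tap1 and Tap2, while tapasin (Tapbp) holds the empty molecule at the transporter, and NLRC5 switches on transcription of these genes. Class II molecules, such as the chain pair encoded by H2-Aa and H2-Ab1, show peptides from engulfed proteins to CD4 T cells, and the invariant chain CD74 guides them to the endosome. In the healthy brain class II is made mainly by macrophages at the borders, by rare dendritic cells and by some microglia, whereas class I is also found in endothelium, microglia and neurons.

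Promoters of the classical MHC genes share an arrangement of an X2 box, read here by its core TGACG, followed by a Y box, read by ATTGG, to which a common protein complex binds together with NLRC5 or CIITA. The pair was searched on both strands with 10 to 30 bases between the motifs, which therefore do not overlap, in windows of 250 bases before to 50 after each annotated start (RefSeq, GRCm38.p6). It stood in 227 of 27025 genes with a window, or 0.84%, and in 4 of the 6 members with a window. The stretches of these 4 members are shown because they hold the pair; capitals mark the 2 motifs.
B2m (chr2:122147589-122147648, plus strand): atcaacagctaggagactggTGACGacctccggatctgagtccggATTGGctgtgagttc
H2-K1 (chr17:34000349-34000408, minus strand): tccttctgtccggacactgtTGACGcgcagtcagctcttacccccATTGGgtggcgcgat
H2-D1 (chr17:35262973-35263032, plus strand): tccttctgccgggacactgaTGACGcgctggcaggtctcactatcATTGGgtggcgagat
H2-Aa (chr17:34287857-34287917, minus strand): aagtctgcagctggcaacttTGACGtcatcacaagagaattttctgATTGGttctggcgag
The gap between the motifs was 20 bases in the 3 class I genes and 21 in H2-Aa. The pair was found in 0 of 6 further class II chains and chaperones, 0 of 12 peptide supply and loading genes and 1 of 10 other class I heavy chains with a window, so among the class II windows searched it was seen in H2-Aa alone. The windows of Tap1 and Tapbp held ATTGG, which 41.1% of genes with a window hold on either strand, but not the pair. These matches describe letters in a window and not a bound site.

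The genotype labels were checked against Grn, and neuron markers were looked at for the tissue label. Mouse Grn fell to 24.7% of WT in Grn-/-;GRNtg cortex and to 63.6% in Grn+/- cortex in the authors' deposited tables (log2 fold change -2.02, SE 0.081, and -0.65, SE 0.077). The signal in the group labelled Grn-/-;GRNtg was thus reduced but not absent, with an interval of 22.1 to 27.6% of WT in the authors' deposited table, and its source was not tested. Cortical neuron markers were abundant, between 533 (Rorb) and 79958 (Camk2a) mean normalized counts in the authors' deposited tables. No other tissue was set beside them, so these counts do not tell cortex from other brain tissue. Adjusted p-values are those of the authors' deposited tables, from a Wald test with Benjamini-Hochberg adjustment over all rows, and a gene counted as called where this was under 0.05. Intervals are 95% intervals computed from the deposited SE under a normal distribution. The deposited SE does not exceed 0.138 and becomes smaller at low counts: its median was 0.137 for genes with mean normalized counts of 25 to 50, 0.101 for 5 to 10 and 0.043 below 2 in the authors' deposited table of Grn-/-;GRNtg against Grn+/-. An interval of a gene with few reads may therefore be too narrow. It may also be centred too near no change, since whether fold changes were shrunk toward 0 is not stated. Intervals of other genes may be too narrow as well. The Wald statistic over all genes had a robust spread, from its median absolute deviation, of 1.56 in Grn-/-;GRNtg against WT. That spread was 1.49 in Grn+/- against WT and 1.10 in Grn-/-;GRNtg against Grn+/-, each wider than a standard normal distribution. Why was not tested.

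Levels differed widely among the 10 genes. Per kb of exon (GENCODE M21), B2m stood highest, at a mean normalized count of 1233 over all libraries, followed by H2-K1 at 282 in the authors' deposited tables. Tapbp (154 per kb), H2-D1 (129 per kb) and Tap2 (105 per kb) followed, and Cd74, the most abundant class II member, reached 56.2 per kb in the authors' deposited tables. Tap1 stood at 19.0 per kb, below its transporter partner Tap2. H2-Ab1 (13.5 per kb), H2-Aa (7.59 per kb) and Nlrc5 (3.39 per kb) were the lowest in the authors' deposited tables. These are means over all genotypes with no error given, so neighbours in this order cannot be ranked beyond it. The exon length joins the exons of all GENCODE M21 transcripts of a gene. It can exceed that of a single transcript, by amounts that may differ between genes. Before division by length, Nlrc5 and H2-Aa each had a mean normalized count of 28.8, the lowest of the 10.

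**Figure D1:**
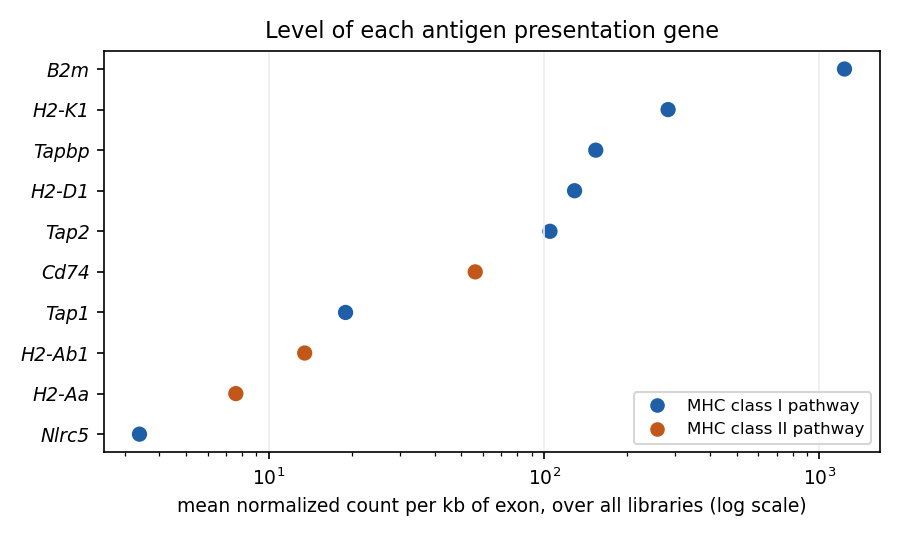
Mean normalized count per kb of exon for each of the 10 genes, over all libraries, on a log axis (blue, class I pathway; orange, class II pathway; no error is given for these means). B2m at 1233 lies above all others, and the class II genes lie between 7.59 and 56.2.

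None of the 10 genes was called in any of the 3 comparisons by the authors' Wald test. In Grn-/-;GRNtg against WT, where 4.87% of all genes were called, 0 of 10 members were, and 4 of 10 had an unadjusted p under 0.05, against 20.5% of all genes. In Grn+/- against WT, 0 of 10 were called beside 6.80% of all genes, and 0 of 10 had an unadjusted p under 0.05 beside 20.2%. Between Grn-/-;GRNtg and Grn+/-, 0 of 10 were called beside 0.467% of all genes, and 4 of 10 had an unadjusted p under 0.05 beside 8.99%.

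Within the class I pathway, Grn-/-;GRNtg cortex had values below WT for the heavy chains and Nlrc5, and values near WT for the transporter and tapasin; no difference passed the test. Nlrc5, the class I transactivator, was at 76.1% of WT in the authors' deposited table (95% interval 63.1 to 91.8%, log2 fold change -0.39, SE 0.138, adjusted p = 0.0668). H2-K1, a classical heavy chain, was at 85.6% of WT in the authors' deposited table (75.2 to 97.4%, log2 fold change -0.22, SE 0.096, adjusted p = 0.145). The other classical heavy chain, H2-D1, had nearly the same estimate with a wider error, 86.0% of WT in the authors' deposited table (72.7 to 102%, adjusted p = 0.304). B2m, whose product pairs with both chains, was at 94.9% of WT in the authors' deposited table (84.0 to 107%, adjusted p = 0.674). For the peptide supply side, Tap1 was at 102% (85.8 to 121%), Tap2 at 99.0% (86.1 to 114%) and Tapbp at 105% of WT (92.2 to 120%) in the authors' deposited table. So a change of Tap2 beyond 86.1% or 114% of WT lies outside its interval, while for Nlrc5 the interval reaches from a small to a sizeable decrease. Both intervals may be too narrow, so they do not firmly bound the change. Across the 7, the median log2 fold change was -0.076, with 5 negative and 2 positive, beside a median of 0.005 and 51.3% positive over all genes. Without H2-K1 and H2-D1 it was -0.015, and over the members with a mean normalized count of at least 100 it was -0.045.

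H2-K1 and H2-D1 resemble other class I genes in sequence. Of the 75-base stretches in their GENCODE M21 transcripts, 3.10% of those of H2-K1 and 5.40% of those of H2-D1 also occur in transcripts of another gene, most often of H2-Q10 and H2-Q1. Reads of such stretches may have been split or dropped, since the counting is not described in the sources used here. The share was 1.10% for Tapbp, and no such stretch was found in the other 7 members. H2-K1 lies on chromosome 17 from 33996017 to 34000347 (minus strand) and H2-D1 from 35262730 to 35267499 (plus strand, GRCm38). Tapbp (33915899 to 33929292), Tap1 (34187553 to 34197225) and Tap2 (34203527 to 34216321) lie on the plus strand of the same chromosome. B2m lies on chromosome 2 from 122147686 to 122153083 and Nlrc5 on chromosome 8 from 94434356 to 94527272, both on the plus strand. Tap1 shares 212 exonic bases with Psmb9 on the opposite strand, 3.87% of its own, and Tapbp shares 149 with Zbtb22 on the same strand, 4.11% of its own. Antisense transcripts cover 904 exonic bases of Tapbp (24.9%) and 533 of Tap2 (14.1%), and strand use in the counting is not known.

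Grn+/- cortex lay close to WT for the class I heavy chains. H2-K1 was at 99.0% of WT (87.0 to 113%, adjusted p = 0.957) and H2-D1 at 101% (85.2 to 119%, adjusted p = 0.976) in the authors' deposited table. B2m was at 111% (98.4 to 126%, adjusted p = 0.336) and Tap1, the gene of the first TAP subunit, at 114% of WT (96.3 to 135%, adjusted p = 0.401) in the authors' deposited table. Those were the highest class I estimates in this comparison, and their intervals include no change. Nlrc5 was at 95.8% (79.4 to 116%), Tap2 at 99.3% (86.3 to 114%) and Tapbp at 101% of WT (88.5 to 116%) in the authors' deposited table. Across the 7, the median log2 fold change was 0.011, with 4 positive and 3 negative, beside 0.0082 and 52.4% positive over all genes.

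Set directly against Grn+/-, Grn-/-;GRNtg cortex had lower estimates for 6 of the 7 class I genes, and none passed the test. B2m was at 85.3% of the Grn+/- level in the authors' deposited table (75.1 to 96.9%, log2 fold change -0.23, SE 0.093, adjusted p = 0.375). Nlrc5 was at 79.5% (65.9 to 95.8%, adjusted p = 0.396) and H2-K1 at 86.4% of Grn+/- (75.5 to 98.9%, adjusted p = 0.496) in the authors' deposited table. These 3 had an unadjusted p under 0.05, at 0.0141 for B2m, 0.0161 for Nlrc5 and 0.0339 for H2-K1 in the authors' deposited table. H2-D1 was at 85.4% (71.9 to 101%, adjusted p = 0.604) and Tap1 at 89.1% of Grn+/- (74.9 to 106%, adjusted p = 0.779) in the authors' deposited table. Tap2, at 99.7% (86.3 to 115%), and Tapbp, at 104% (90.6 to 120%), differed least in the authors' deposited table. Across the 7, the median log2 fold change was -0.211, beside 0.0014 over all genes. Comparisons with WT share the WT mice and this one shares both mutant groups, so the 3 sets of values are not independent of each other.

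All 3 class II genes had estimates above WT in Grn-/-;GRNtg cortex, the opposite sign to the class I heavy chains, and none passed the test. Cd74 (chromosome 18, 60803848 to 60812652, plus strand, GRCm38), the invariant chain, was at 132% of WT in the authors' deposited table (110 to 158%, log2 fold change 0.40, SE 0.136, adjusted p = 0.0589). H2-Ab1, the class II beta chain (chromosome 17, 34257689 to 34269419, plus strand, GRCm38), was at 121% of WT in the authors' deposited table (102 to 144%, log2 fold change 0.28, SE 0.129, adjusted p = 0.194). H2-Aa, the alpha chain of the same molecule (chromosome 17, 34282744 to 34287823, minus strand, GRCm38), was at 113% of WT in the authors' deposited table (95.4 to 134%, log2 fold change 0.18, SE 0.125, adjusted p = 0.430). Cd74 had the smallest adjusted p of all 10 members in any comparison, and Nlrc5 the next. The median log2 fold change of the 3 was 0.276, beside 0.005 over all genes. The difference between the class I and class II genes was not tested, since the tables give no values per mouse.

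In Grn+/- cortex the class II estimates were also above WT but smaller. Cd74 was at 110% (91.3 to 132%, adjusted p = 0.631), H2-Ab1 at 106% (88.7 to 126%, adjusted p = 0.795) and H2-Aa at 104% of WT (87.7 to 123%, adjusted p = 0.856) in the authors' deposited table. Set against Grn+/-, Grn-/-;GRNtg cortex had Cd74 at 120% of the Grn+/- level in the authors' deposited table (100 to 144%, unadjusted p = 0.0493, adjusted p = 0.553). H2-Ab1 was at 115% (96.5 to 136%, adjusted p = 0.702) and H2-Aa at 109% of Grn+/- (92.1 to 128%, adjusted p = 0.858) in the authors' deposited table. With mean normalized counts between 28.8 and 94.3 in the authors' deposited tables, these 3 genes had SEs between 0.122 and 0.136, close to the 0.138 that no SE exceeds.

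**Figure D2:**
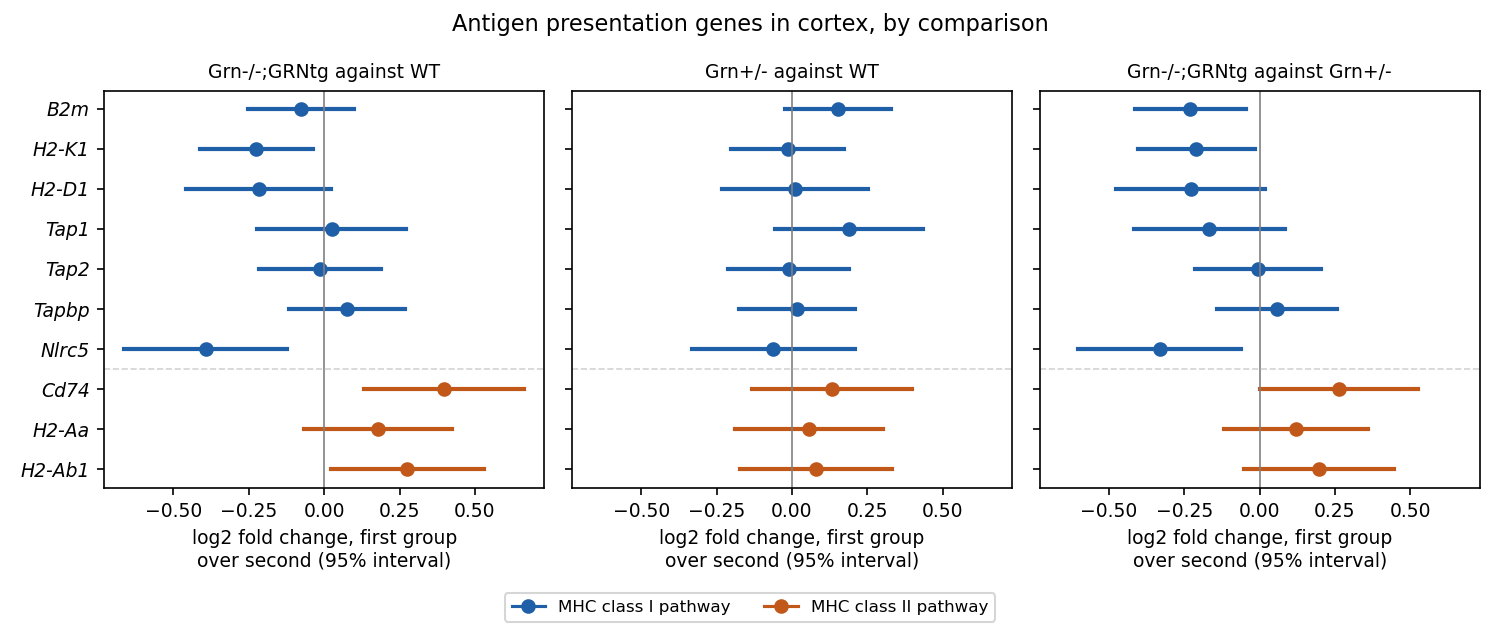
Log2 fold change of each of the 10 genes in the 3 comparisons (points) with its 95% interval (bars); values above 0 are higher in the first-named genotype. In Grn-/-;GRNtg against WT, Nlrc5 (-0.39) and Cd74 (0.40) lie farthest from 0 on either side, and in Grn+/- against WT every interval includes 0.

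**Figure D3:**
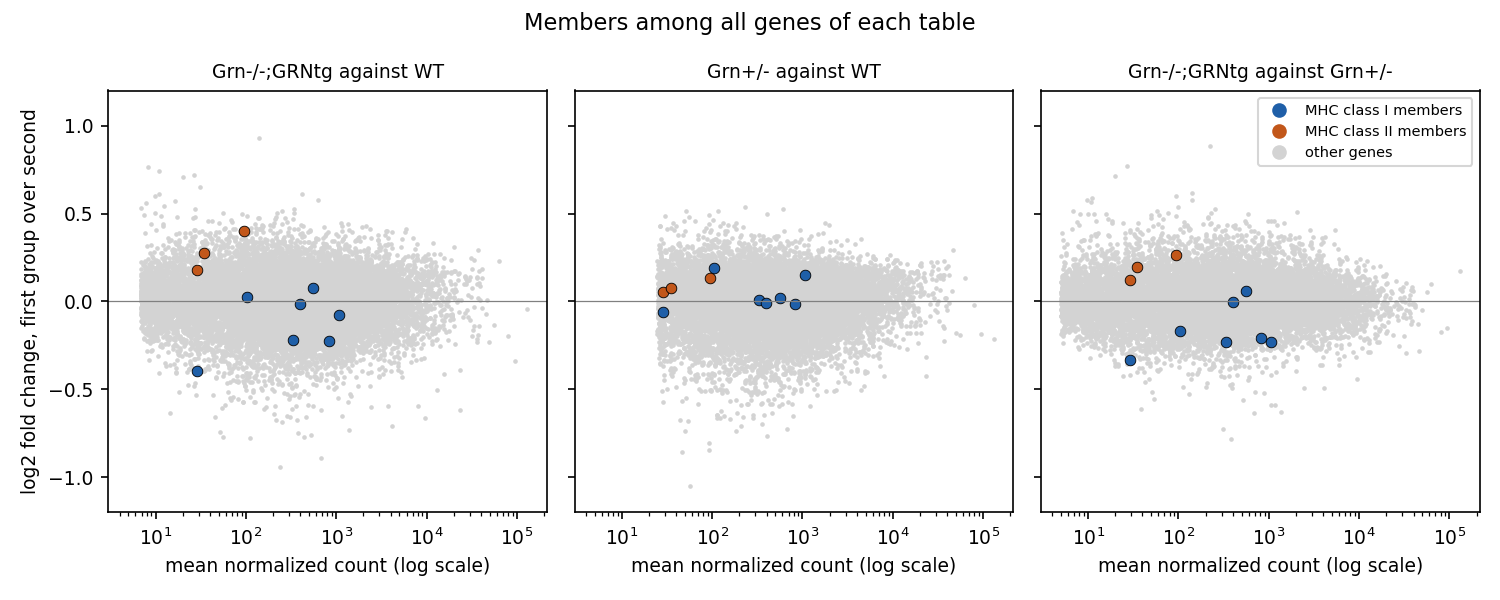
Log2 fold change against mean normalized count (log axis) for all genes with a count of at least 5 in each comparison (grey), with class I (blue) and class II members (orange) marked; Grn lies beyond the axis limit of 1.2 in both comparisons of Grn-/-;GRNtg. The 10 members fall within the cloud of other genes in each panel, with Nlrc5 and Cd74 towards its edges in the first.

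Other genes of the class I pathway were then examined. Of 40 listed genes measured in Grn-/-;GRNtg against WT, 1 rose and 1 fell, a share near the 4.87% called over all genes, and the median log2 fold change was -0.010. Among genes of peptide supply, Lnpep, which encodes an endosomal aminopeptidase that trims peptides for cross-presentation, fell to 69.2% of WT in Grn-/-;GRNtg cortex in the authors' deposited table (log2 fold change -0.53, SE 0.138, adjusted p = 0.00761). It fell to 62.7% of WT in Grn+/- cortex in the authors' deposited table (log2 fold change -0.67, SE 0.138, adjusted p = 0.000181). There it was the 1 called gene of 34 measured, beside 6.80% of all genes called. The mutant groups did not differ detectably in Lnpep, which the authors' deposited table puts at 110% of Grn+/- in Grn-/-;GRNtg (91.6 to 133%, adjusted p = 0.850). Lnpep rested on a mean normalized count of 43.5, and neither call held when the Wald statistic was divided by its robust spread over all genes, 1.56 and 1.49 in the tables of Grn-/-;GRNtg and Grn+/- against WT. Under that setting Grn alone stayed called among the named genes: the calls of H2-Q10, March8, the interferon genes and the cell type markers given next were lost too.

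Subunits of the inducible proteasome and its activator, which cut proteins into peptides for class I, were not called. Psme1, an activator subunit, was at 122% of WT in Grn-/-;GRNtg cortex (adjusted p = 0.0605) and at 109% in Grn+/- cortex (adjusted p = 0.522) in the authors' deposited tables. Its partner Psme2 was at 114% of WT in Grn-/-;GRNtg cortex (adjusted p = 0.167) and at 113% in Grn+/- cortex (adjusted p = 0.184) in the authors' deposited tables. Psmb10, a catalytic subunit, was at 113% of WT in Grn-/-;GRNtg cortex (adjusted p = 0.164) and at 103% in Grn+/- cortex (adjusted p = 0.800) in the authors' deposited tables. H13, the signal peptide peptidase, was at 101% of WT in Grn-/-;GRNtg cortex (adjusted p = 0.949) and at 91.2% in Grn+/- cortex (adjusted p = 0.403) in the authors' deposited tables. The other inducible catalytic subunits lay close to WT in Grn-/-;GRNtg cortex, Psmb8 at 99.4% and Psmb9 at 98.0% in the authors' deposited table, a pair named after their values were seen. Of the 13 peptide supply and loading genes, 8 were positive and 5 negative in this comparison, with a median log2 fold change of 0.032.

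Other class I heavy chains, the class Ib and class I-like genes, gave 1 called gene. It was 1 of 14 measured in Grn-/-;GRNtg against WT and 1 of 15 in Grn-/-;GRNtg against Grn+/-, beside 4.87% and 0.467% of all genes called. H2-Q10, a secreted class Ib molecule made mainly in liver, rose in Grn-/-;GRNtg cortex, to 124% of WT in the authors' deposited table (log2 fold change 0.31, SE 0.080, adjusted p = 0.00666). It was also higher than in Grn+/- cortex, again at 124% in the authors' deposited table (log2 fold change 0.31, SE 0.077, adjusted p = 0.0190). Its mean normalized count was 7.98, in the range where the deposited SE is small, and it was absent from the table of Grn+/- against WT. Genes abundant in liver, chosen after their values were seen, moved with it. In the authors' deposited table Apoa2 was higher in Grn-/-;GRNtg than in WT by a log2 fold change of 0.72 (SE 0.131) and Ahsg by 0.61 (SE 0.091), at mean normalized counts of 26.8 and 10.9. Their part in the H2-Q10 result was not tested. Of the stretches of H2-K1 transcripts, 2.38% also occur in H2-Q10.

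H2-Q4, another class Ib chain, was at 85.2% of WT in Grn-/-;GRNtg cortex (adjusted p = 0.241) and at 113% in Grn+/- cortex (adjusted p = 0.390) in the authors' deposited tables. Set against Grn+/- it was at 75.2% in Grn-/-;GRNtg cortex in the authors' deposited table (log2 fold change -0.41, SE 0.120, adjusted p = 0.0778), which missed the threshold. H2-M3, which presents formylated peptides and whose promoter window also held the motif pair, was at 80.6% of Grn+/- in Grn-/-;GRNtg cortex in the authors' deposited table (log2 fold change -0.31, SE 0.137, adjusted p = 0.441). Against WT, H2-M3 was at 93.7% in Grn-/-;GRNtg cortex (adjusted p = 0.740) and at 116% in Grn+/- cortex (adjusted p = 0.376) in the authors' deposited tables. H2-T24 was at 84.6% of WT in Grn-/-;GRNtg cortex (adjusted p = 0.304) and at 84.7% in Grn+/- cortex (adjusted p = 0.317) in the authors' deposited tables. H2-Q1 was at 115% of WT in Grn-/-;GRNtg cortex in the authors' deposited table (adjusted p = 0.186), from a mean normalized count of 7.23.

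Transcription regulators of the class I genes were not called in any comparison, 0 of 13. Over all genes 4.87%, 6.80% and 0.467% were called in Grn-/-;GRNtg against WT, Grn+/- against WT and Grn-/-;GRNtg against Grn+/-. In the same order, 2, 2 and 0 regulators had an unadjusted p under 0.05 by the authors' Wald test, beside 20.5%, 20.2% and 8.99% of all genes. Irf1, an interferon-induced activator of class I, was at a log2 fold change of 0.05 in Grn-/-;GRNtg (SE 0.110) and of 0.24 in Grn+/- (SE 0.109, adjusted p = 0.178), both against WT, in the authors' deposited tables. Nfkb1, an NF-kB subunit, was at -0.15 in Grn-/-;GRNtg (SE 0.095) and -0.20 in Grn+/- (SE 0.095, adjusted p = 0.185) against WT (log2 fold change) in the authors' deposited tables. Creb1, a factor that can bind the X2 box, was at -0.17 (SE 0.085) and Rfxap, a subunit of the complex at the X box, at 0.17 (SE 0.083) in Grn-/-;GRNtg against WT (log2 fold change) in the authors' deposited table. Of the interferon signalling list, 3 of 18 fell in Grn-/-;GRNtg cortex: Gbp3 (-0.55), Gbp7 (-0.51) and Irf9 (-0.47), log2 fold changes against WT in the authors' deposited table with adjusted p of 0.000578, 0.00482 and 0.00240, beside 4.87% of all genes called. Gbp3 and Gbp7 encode interferon-induced GTPases and Irf9 a transcription factor of interferon signalling. In Grn+/- cortex, where 6.80% of all genes were called, 2 of 18 fell, the kinases Jak2 (-0.32, adjusted p = 0.0117) and Tyk2 (-0.20, adjusted p = 0.0494), which signal from interferon receptors, as log2 fold changes against WT in the authors' deposited table. In Grn-/-;GRNtg against Grn+/-, 0 of 18 were called by the authors' Wald test, beside 0.467% of all genes. Of the 18, 5 had an unadjusted p under 0.05, beside 8.99% of all genes, among them Irf7 (-0.29), Gbp2 (-0.27) and Stat2 (-0.13), log2 fold changes in the authors' deposited table.

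The wider class II pathway held 1 call in 16 measured genes in Grn-/-;GRNtg against WT, a share near the 4.87% called over all genes. March8, a membrane ubiquitin ligase that can send class II molecules for degradation when overproduced, fell to 86.1% of WT in the authors' deposited table (log2 fold change -0.22, SE 0.067, adjusted p = 0.0376). In Grn+/- cortex it was at 88.6% of WT in the authors' deposited table (log2 fold change -0.17, SE 0.067, adjusted p = 0.0959). Its relative March1, which removes class II from the surface of dendritic cells, was at a log2 fold change of 0.25 in Grn-/-;GRNtg against Grn+/- in the authors' deposited table (SE 0.110, adjusted p = 0.429). Against WT, March1 was at 0.10 in Grn-/-;GRNtg and at -0.15 in Grn+/- (log2 fold change) in the authors' deposited tables. No gene of the list was called in either remaining comparison by the authors' Wald test. In Grn+/- against WT 0 of 14 were called, beside 6.80% of all genes, and 4 had an unadjusted p under 0.05, beside 20.2%. In Grn-/-;GRNtg against Grn+/- 0 of 18 were called, beside 0.467% of all genes, and 2 had an unadjusted p under 0.05, beside 8.99%.

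Of 5 further class II chains and chaperones measured in Grn-/-;GRNtg against WT, 3 were positive and 2 negative, with a median log2 fold change of 0.048. None was called by the authors' Wald test, beside 4.87% of all genes, and 0 had an unadjusted p under 0.05, beside 20.5%. H2-Eb1, the beta chain of the second class II molecule, was at 118% of WT in Grn-/-;GRNtg cortex (adjusted p = 0.298) and at 106% in Grn+/- cortex (adjusted p = 0.779) in the authors' deposited tables. H2-DMb1, a chain of the peptide editor H2-DM, was at 115% of WT in Grn-/-;GRNtg cortex (adjusted p = 0.408) and at 108% in Grn+/- cortex (adjusted p = 0.725) in the authors' deposited tables. The 2 negative genes, H2-DMa and H2-Ob, were named after their values were seen. H2-DMa, the other H2-DM chain, had a mean normalized count of 217, against 25.3 for H2-DMb1. It was at 99.3% of WT in Grn-/-;GRNtg cortex and at 95.5% in Grn+/- cortex in the authors' deposited tables. H2-Ob was at 94.3% of WT in Grn-/-;GRNtg cortex in the authors' deposited table. The class II transactivator Ciita had a mean normalized count of 2.16 and was listed only in the table of Grn-/-;GRNtg against Grn+/-, at a log2 fold change of 0.05 in the authors' deposited table. H2-DMb2 stood at 2.14 mean normalized counts and 0.06 on the log2 scale there, in the same authors' deposited table. Among the endosomal proteases, Ctsl was at 0.18 (SE 0.067, adjusted p = 0.0829) and Ctsb at 0.18 (SE 0.069, adjusted p = 0.0994) in Grn+/- against WT (log2 fold change) in the authors' deposited table. Ctsb was at -0.22 in Grn-/-;GRNtg against Grn+/- (log2 fold change) in the authors' deposited table (SE 0.072, adjusted p = 0.167). Ap3b1, an adaptor subunit, was at 0.13 in Grn-/-;GRNtg against WT (log2 fold change) in the authors' deposited table (SE 0.064, adjusted p = 0.222).

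Markers of the cells that make these molecules were set beside them. Border macrophage markers, with summed mean normalized counts of 762, had a median log2 fold change of 0.189 in Grn-/-;GRNtg against WT. Of the 7 measured, 6 were positive, beside 51.3% of all genes, and 1 was called, beside 4.87% of all genes. This was Lyve1, a hyaluronan receptor, at 0.39 (log2 fold change) in the authors' deposited table (SE 0.114, adjusted p = 0.0223) with a mean normalized count of 7.74. The scavenger receptors Cd163 and Mrc1 had log2 fold changes of 0.32 (SE 0.124, adjusted p = 0.109) and 0.22 (SE 0.135, adjusted p = 0.344) in the authors' deposited table. Stab1, another scavenger receptor, held most of the summed count, and its log2 fold change was 0.11 in Grn-/-;GRNtg and -0.12 in Grn+/- against WT in the authors' deposited tables. In Grn+/- against WT only 3 of these markers were measured, Mrc1, F13a1 and Stab1, with a median of -0.003 and 1 positive. The others, Lyve1 and Cd163 among them, were absent from that comparison. This median and the 0.189 therefore cover different genes and cannot be set against each other. Against Grn+/-, the median in Grn-/-;GRNtg was 0.118, with 6 of 8 positive. The part of these markers in the class II values was not tested. Microglia markers, with summed mean normalized counts of 10434, had 0 of 16 called in each comparison by the authors' Wald test. Over all genes 4.87%, 6.80% and 0.467% were called in Grn-/-;GRNtg against WT, Grn+/- against WT and Grn-/-;GRNtg against Grn+/-. In the same order, 1, 0 and 0 markers had an unadjusted p under 0.05 by that test, beside 20.5%, 20.2% and 8.99% of all genes. The 1 was Siglech, at -0.25 (log2 fold change) in the authors' deposited table. The median of the microglia markers was -0.062 in Grn-/-;GRNtg and -0.062 in Grn+/-, both against WT. In each of these comparisons 13 of 16 were negative, where 51.3% and 52.4% of all genes were positive.

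Endothelial markers were set beside the class I values. Against WT, 4 of 12 fell in Grn-/-;GRNtg cortex, 11 of 12 were negative and the median log2 fold change was -0.252, beside 4.87% called and 51.3% positive over all genes. Kdr (-0.40, SE 0.117), Flt1 (-0.36, SE 0.090), Slco1c1 (-0.36, SE 0.087) and Eng (-0.32, SE 0.103) fell, as log2 fold changes against WT in the authors' deposited table, the first pair being receptors of vascular growth factor. In Grn+/- against WT the median was -0.121 and 0 of 12 were called by the authors' Wald test, beside 6.80% of all genes, with 2 at an unadjusted p under 0.05, beside 20.2%. In Grn-/-;GRNtg against Grn+/- it was -0.132, with 0 called, beside 0.467%, and 1 at an unadjusted p under 0.05 by that test, beside 8.99%. Endothelium also makes class I, and the part of these markers in the class I values was not tested.

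**Figure D4:**
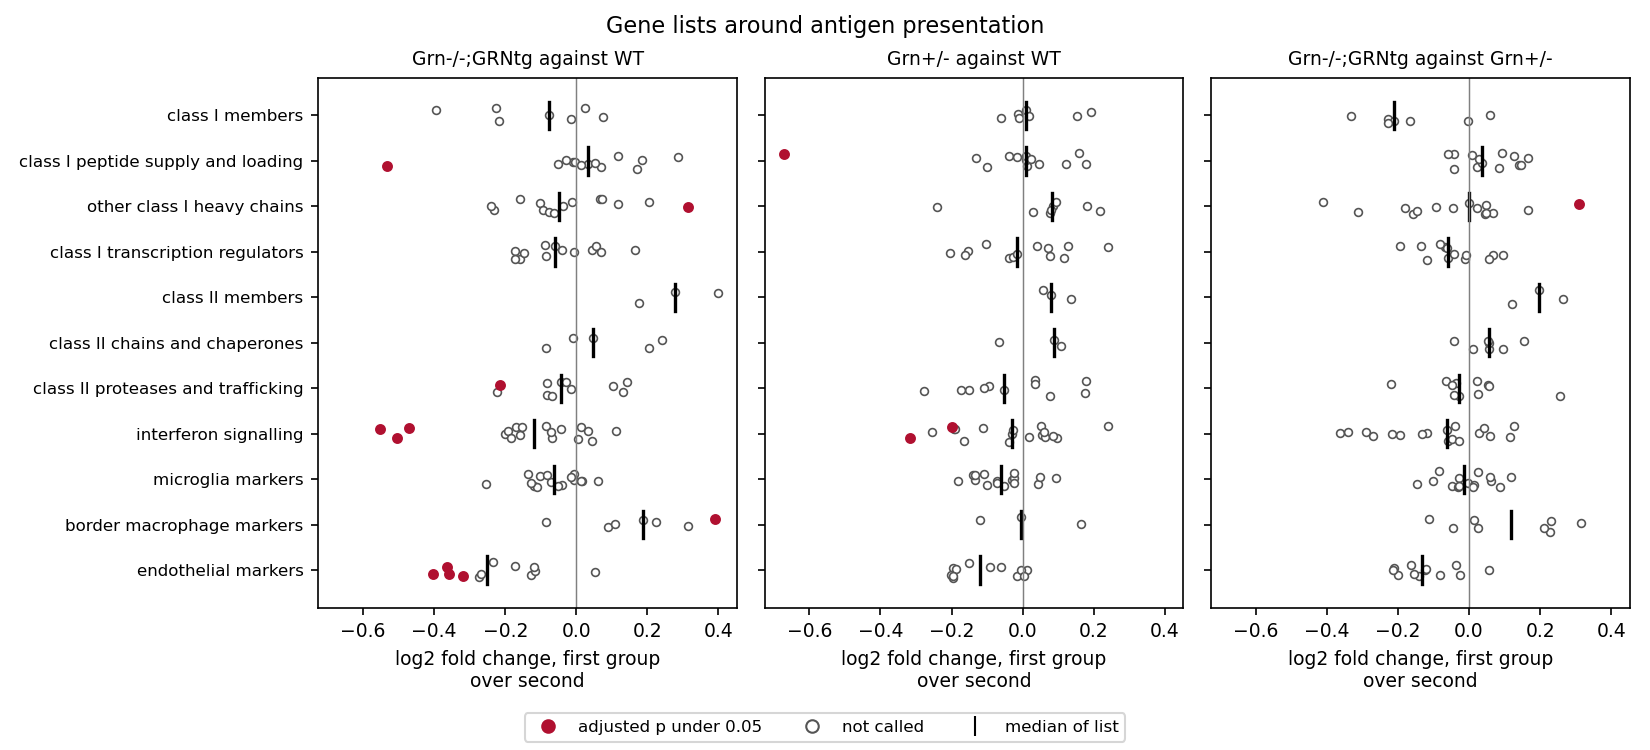
Log2 fold change of every measured gene of each list (rows) in the 3 comparisons (panels); filled points are called by the authors' adjusted p, open points are not, and vertical bars are list medians. Against WT, the Grn-/-;GRNtg medians of the class II members (0.276) and border macrophage markers (0.189) lie right of 0, and that of the endothelial markers (-0.252) left of it.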

How the data were processed

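Cortex RNA of 4 Grn-/-;GRNtg, 4 Grn+/- and 5 WT mice was sequenced from total RNA with a directional library kit, per the labels' protocols. The submitters' processing notes list mm10, R 4.1.2 and DESeq2 1.34.0; aligner, counter, annotation and strand setting: not given in the sources used here. The files used are the authors' deposited comparison tables. They hold normalized counts averaged over libraries (a signal), a log2 fold change with its SE, a Wald statistic, which is a score, and a p-value with its adjusted p-value, all computed by the authors, per the file headers. Depth per mouse is unknown; mean normalized counts of genes summed to 18113972. Rows for reads assigned to no gene (17.0% of the total) and to several (0.606%) were left out.

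No model was refitted. Fold changes of the 3 tables added up to within 2.3e-16, so they share a fit. Whether fold changes were shrunk toward 0 is not stated. The deposited SEs become smaller at low counts and do not exceed 0.138, as shrinkage can give, but this was not tested. If fold changes were shrunk, percents of genes with few reads understate changes. Nlrc5, the class II members and Lnpep, with SEs near 0.138, are among these genes. Percent of a genotype's level is 2 to the power of the log2 fold change. Members and lists were chosen with earlier results of these data known. Named genes are Grn, the 10 members, listed genes that were called, and up to 4 others per list with the smallest p. Other lists covered peptide supply, heavy chains, regulators, class II genes, the interferon axis, receptors, and markers of microglia, border macrophages, endothelium, T cells, B cells, dendritic cells and monocytes, and cortex. The adjustment, the division by the robust spread and the subtraction of the median were tested on simulated data, and the other settings were not. Likeness between genes across mice was not computed. Promoters are from RefSeq (GRCm38.p6) and positions from GENCODE M21 (GRCm38). Computations ran in Python 3.11.15 with pandas 2.3.3, scipy 1.17.1 and numpy 2.4.6.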

Additional observations from a re-analysis of the deposited data

Results flagged for a closer look

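The difference between the mutant groups passed the authors' test in H2-Q10 and in Grn itself among all genes of the lists. H2-Q10 was higher in Grn-/-;GRNtg than in Grn+/- cortex by a log2 fold change of 0.31 in the authors' deposited table, from a mean normalized count of 7.98. The authors' deposited table gives Grn a log2 fold change of -1.36. No value per mouse was used, so single mice that stand apart were not looked for.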

How the results depend on the processing

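No paired analysis was possible because the tables hold no values per mouse; leaving out each replicate was not run for the same reason. For the 10 members in the 3 comparisons, only a threshold of adjusted p under 0.1 made calls: Nlrc5 lower and Cd74 higher in Grn-/-;GRNtg against WT, so 1 class I and 1 class II member. All class II members fell below a mean normalized count of 100, so that filter gave no value for them. The class I median in Grn-/-;GRNtg against WT ran from -0.081 to -0.015, its highest value without H2-K1 and H2-D1, and kept its sign. Of the other class I pathway genes, 2 were called in Grn-/-;GRNtg against WT; 1 was with genes in all 3 tables only, 0 with a count of at least 100 and 0 with the statistic divided by its robust spread (1.56, 1.49 and 1.10 in the 3 tables). For Grn+/- against WT, 1 was called, and 0 under the last 2 settings. For Grn-/-;GRNtg against Grn+/-, 1 was called, 2 with adjusted p under 0.1, and 0 with adjusted p under 0.01, with genes in all 3 tables only, with a count of at least 100 and with the robust spread. Of the other class II pathway genes, March8 in Grn-/-;GRNtg against WT was lost, leaving 0, with adjusted p under 0.01, with the robust spread and when absolute log2 fold changes had to reach 0.3. In Grn+/- against WT, 3 were called with adjusted p under 0.1 in place of 0. Nlrc5, H2-Aa and H2-Ab1 had the fewest reads, at mean normalized counts of 28.8 to 34.7.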

Other observations

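Of receptors and costimulators of antigen presentation, 0 of 7, 0 of 5 and 0 of 11 measured genes were called in Grn-/-;GRNtg against WT, Grn+/- against WT and Grn-/-;GRNtg against Grn+/-, beside 4.87%, 6.80% and 0.467% of all genes. In the same order, 1, 0 and 2 had an unadjusted p under 0.05 by the authors' Wald test, beside 20.5%, 20.2% and 8.99% of all genes. Cd86, a costimulator on antigen presenting cells, was at a log2 fold change of 0.29 in Grn-/-;GRNtg (SE 0.135, adjusted p = 0.199) and of -0.04 in Grn+/- (SE 0.136) against WT in the authors' deposited tables. Cd4, the receptor for class II on T cells and present on some other cells, was at 0.24 on the log2 scale in Grn-/-;GRNtg against Grn+/- in the authors' deposited table (SE 0.114, adjusted p = 0.496). Against WT, Cd4 was at 0.17 in Grn-/-;GRNtg and at -0.08 in Grn+/- (log2 fold change) in the authors' deposited tables.

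T cell markers ranged from a mean normalized count of 0.602 (Cd3d) to 41.7 (Cd4). Between the mutant groups 0 of 6 were called by the authors' Wald test, beside 0.467% of all genes, with 1, Cd4, at an unadjusted p under 0.05, beside 8.99%. B cell markers were scarce, Cd79a at a mean normalized count of 5.56, with 0 of 5 called and 0 at an unadjusted p under 0.05 by that test. Of dendritic cell and monocyte markers, 0 of 5, 0 of 3 and 0 of 8 were called in Grn-/-;GRNtg against WT, Grn+/- against WT and Grn-/-;GRNtg against Grn+/-, beside 4.87%, 6.80% and 0.467% of all genes. In each, 0 had an unadjusted p under 0.05 by the authors' Wald test, beside 20.5%, 20.2% and 8.99% of all genes. Among cortex markers, Camk2a fell to 87.3% of WT in Grn-/-;GRNtg cortex (adjusted p = 0.0181) and Rorb was higher, at 130% of WT, in Grn+/- cortex (adjusted p = 0.0480, no longer under the threshold once the median of all genes was subtracted) in the authors' deposited tables.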
